A study of Mus musculus with 4 samples.

Results

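Expression of 5 Sox transcription factor genes was read in 4 mouse cerebellar tumors: Sox2 and Sox9, which mark neural stem cells and glia, and the SoxC genes Sox4, Sox11 and Sox12, which act as precursors leave the cell cycle and become neurons. The genes were followed through every probe set to which the platform annotation gives one of these symbols and no other, which came to 17 probe sets of the 24679 with a single symbol. There was 1 for Sox2, 3 for Sox9, 5 for Sox4, 6 for Sox11 and 2 for Sox12. A probe set is a group of short oligonucleotides on the Affymetrix Mouse Genome 430 2.0 array that together read a transcript, and probe sets of a gene can lie on different parts of it or on different transcripts.

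The 4 tumors carry the label Chd7-het and the numbers 1, 2, 4 and 5, which are used here as names, and come from mice of a mixed CD1xC57BL/6 background. Each tumor was measured on 1 array of total RNA. Every sample shares the genotype label, so there was no tumor of another genotype and no normal cerebellum to compare with, and nothing in the labels says what started the tumors, the age or sex of the mice, or whether a number marks a litter or batch. What could be asked was how high the Sox genes read and whether a tumor stood apart from the other 3 in them.

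Sox proteins bind DNA through an HMG box, a domain that bends the helix, and act with partner factors. SOX2 keeps neural precursors dividing, and SOX9 is needed for the stem cell state and for gliogenesis and stays on in astrocytes, Bergmann glia among them. SOX4 and SOX11 switch on neuronal genes such as Tubb3 and Dcx in young neurons, and SOX12 is the less well studied member of the group. CHD7, the chromatin remodelling ATPase named in the genotype, is known to bind together with SOX2 and to activate Sox4 and Sox11 in neural progenitors.

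Promoter windows were available for 4 of the 5 genes, from RefSeq on the build GRCm38.p6, each covering 250 bases before and 50 bases after the gene's start. Each of the 4 held the CCAAT box, the letters CCAAT or, on the other strand, ATTGG, which 37.4% of the 32851 mouse windows held. The motif was picked after the windows had been seen, and a match of letters is a description, not a binding site. One match per gene is shown in a stretch of 41 bases, with the motif in capitals, 5′ to 3′ on the gene's strand:
Sox2, chr3:34649931-34649971, plus strand: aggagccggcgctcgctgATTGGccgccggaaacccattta
Sox4, chr13:28953724-28953764, minus strand: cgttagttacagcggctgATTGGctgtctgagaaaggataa
Sox11, chr12:27342756-27342796, minus strand: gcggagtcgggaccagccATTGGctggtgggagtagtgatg
Sox12, chr2:152398227-152398267, minus strand: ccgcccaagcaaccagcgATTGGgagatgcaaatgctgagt

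The motif began at positions -46, -47, -60 and -203 from the start in these stretches. The Sox4 window held 4 matches, at -171, -104, -47 and -8, while the others held 1. Only 1 of the Sox4 matches is shown, so its closeness to the Sox2 position rests on that choice. A Sox-type motif, AACAAT on either strand, was found in 0 of the 4 windows and in 10.7% of all, and the TATA box letters TATAAA, on either strand, in 0 of 4 and 13.6%. The windows were 66.3% G and C for Sox2, 52.0% for Sox4, 58.7% for Sox11 and 76.7% for Sox12, against a median of 52.7% over all windows.

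Values are given as log2 of the deposited MAS5 signal, with the mean ± SD over the 4 tumors where one is given. A floor was set at 5.12 (34.8 on the linear scale), the median of the arrays' 40th percentiles, and signals above it are called readable here. It is a percentile cut, not a detection call. Between 59.1% and 61.3% of probe sets lay above it on each array, a share that follows from its definition. Tests were run on the 13525 single-symbol probe sets with a mean of at least 5.87, of which 16 belong to the 5 Sox genes. Gapdh control signals from the 3' and 5' ends of the transcript, compared as a guide to RNA integrity, gave ratios from 0.686 to 0.757. By the test described below, tumor 1 had the most probe sets outside the spread of the other 3. Some of the genes set apart in it reached the filter on the mean through tumor 1 itself. The counts for tumors 2 and 5 depended on whether tumor 1 was among those they were set against, while that for tumor 4 did not.

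Of the stem cell factors, Sox2 read 8.54, 8.60, 8.04 and 8.16 in tumors 1, 2, 4 and 5 (8.34 ± 0.28, SD, n = 4). Tumors 1 and 2 lay close together at the top and tumors 4 and 5 at the bottom, and the highest tumor was 1.47-fold above the lowest. Tumors 2 and 1 differed by less than the SD, as did tumors 5 and 4, and the gap between tumors 1 and 5 exceeded it. The SD comes from the same 4 values, so this describes their spacing and is not a test.

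Sox9 was read by a pair of probe sets that ranked tumor 2 first and tumor 1 last. The brighter, 1451538_at, read 7.28, 7.91, 7.40 and 7.46 in tumors 1, 2, 4 and 5 (7.51 ± 0.28, SD, n = 4), and 1424950_at read 6.88, 7.62, 7.24 and 7.04 (7.19 ± 0.32, SD, n = 4). The order of tumors 4 and 5 was not the same in both. The third Sox9 probe set, 1433889_at, lay below the floor in every tumor, between 1.63 and 2.32, so it did not follow the others and was not tested. Tumor 2 exceeded tumor 1 by 1.55-fold in the brighter and 1.67-fold in the other readable probe set.

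Sox4, the first of the SoxC genes, lay above the floor in every tumor in all 5 probe sets. Its brightest, 1433575_at, read 11.59, 11.46, 11.66 and 11.61 in tumors 1, 2, 4 and 5 (11.58 ± 0.09, SD, n = 4). The tumors were within 1.15-fold of each other there. The widest of the 5, 1419156_at, read 9.31, 9.06, 9.12 and 8.96, with tumor 1 at the top and tumor 5 at the bottom, 1.27-fold apart. The probe sets put different tumors first: tumor 1 in 3 of them, tumor 2 in 1449370_at (6.51) and tumor 4 in 1433575_at.

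Sox11 was likewise above the floor in every tumor in all 6 probe sets. The brightest, 1436790_a_at, read 10.66, 10.68, 10.52 and 10.77 in tumors 1, 2, 4 and 5 (10.66 ± 0.10, SD, n = 4). The widest, 1429372_at, read 9.52, 9.48, 9.07 and 9.26 (9.33 ± 0.21, SD, n = 4), 1.37-fold between tumors 1 and 4. Tumor 4 was lowest in 5 of the 6 probe sets, the exception being 1429051_s_at, with tumor 2 lowest at 9.72. Over all probe sets past the filter, tumor 4 was lowest in 18.5%, but the Sox11 probe sets read the same RNA and are not separate samples.

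The 2 probe sets of Sox12 did not vary alike. In 1455562_at the tumors read 7.42, 7.52, 7.52 and 7.47 in tumors 1, 2, 4 and 5 (7.48 ± 0.05, SD, n = 4), a spread of 1.07-fold. In the dimmer 1439754_at they read 6.31, 6.58, 5.72 and 6.19 (6.20 ± 0.36, SD, n = 4), with tumor 4 apart at the bottom and 1.82-fold between tumors 2 and 4. Tumor 4 was thus lowest in one probe set of the gene and near the top in the other.

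**Figure D1:**
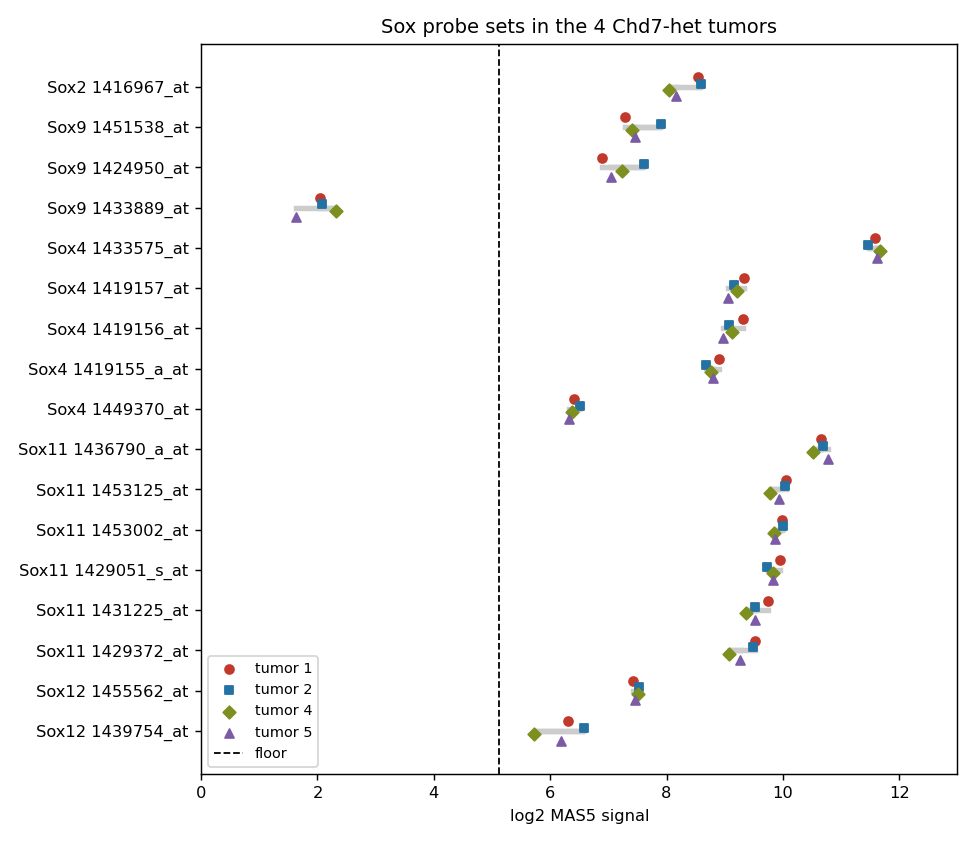
Log2 MAS5 signal (x axis) of the 17 Sox probe sets (rows) in tumors 1, 2, 4 and 5 (coloured points, 1 array each; the grey bar joins the lowest and highest tumor), with the floor at 5.12 as a dashed line. The bars span 0.19 to 0.34 log2 units for Sox4, 0.15 to 0.46 for Sox11, 0.56 for Sox2, 0.63 and 0.74 for the readable Sox9 probe sets and 0.86 for Sox12 1439754_at, and Sox9 1433889_at lies below the floor.

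The range over the tumors, the highest minus the lowest log2 signal, was under 1 (2-fold) in each of the 16 Sox probe sets past the filter, against 1 or more in 5.48% of all 13525. The median range was 0.27 for the Sox probe sets and 0.39 for all, with 5 Sox probe sets above the median of all and 11 below. The 5 were Sox2, both of Sox9, Sox11 1429372_at and Sox12 1439754_at. The SoxC genes had a median range of 0.25 over 13 probe sets, and it was 0.21 for Sox4 and 0.27 for Sox11. Sox2 and Sox9 had 0.63 over 3.

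Since dim signals are noisier, each Sox probe set was also set beside all those with a mean within 0.5 log2 units of its own. Among these, 20.7% had a larger range than Sox2, 20.2% and 14.2% larger ranges than the 2 readable Sox9 probe sets, 1451538_at and 1424950_at, and 15.1% a larger one than Sox12 1439754_at. For Sox11 this share ran from 29.1% for 1429372_at to 89.9% for 1453002_at, and for Sox4 from 50.6% for 1419156_at to 90.9% for 1449370_at. It was 98.0% for Sox12 1455562_at. These shares describe the 4 arrays and are not a test.

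**Figure D2:**
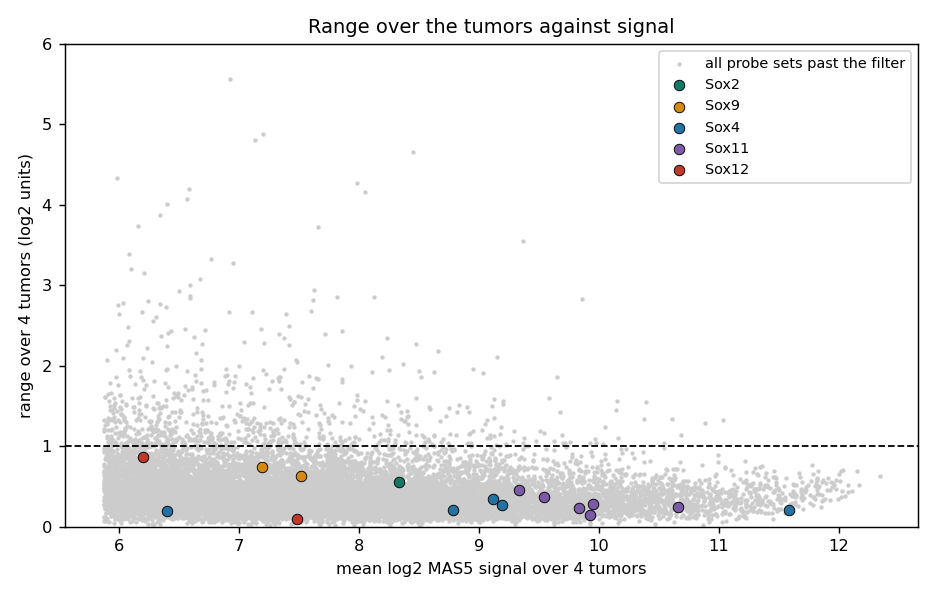
Range over the 4 tumors (y axis, log2 units, values raised to the floor) against the mean log2 MAS5 signal (x axis) for all 13525 probe sets past the filter (grey) and the 16 of the 5 Sox genes (coloured by gene), with 1 log2 unit dashed. No Sox point reaches the line, and Sox12 1439754_at comes closest at 0.86.

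Each tumor was then set against the other 3 with limma. An adjusted p under 0.05 over all 13525 probe sets and a difference of 2-fold or more were required. No Sox range reached 1 log2 unit (highest 0.86), and a difference from the mean of the others cannot exceed the range. Their failure to pass was therefore fixed by the ranges and is not a finding of the test. None of the 16 Sox probe sets passed in any tumor (0 of 64 differences), beside 0.872% of all probe sets in tumor 1 and 0% in each other tumor. An unadjusted p under 0.05 was reached by 0, 2, 1 and 0 Sox probe sets in tumors 1, 2, 4 and 5, where 10.9%, 6.30%, 0.621% and 3.55% of all probe sets did. The counts over all probe sets depended on the tumors included: without tumor 2 or without tumor 5, 301 or 281 passed in tumor 1, and without tumor 1, 92 passed in tumor 2 and 82 in tumor 5, none of them of the 5 Sox genes. Here the single tumor borrows its error from the other 3, and the test asks only whether it lies outside their spread.

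The 2 in tumor 2 were those of Sox9. The brighter, 1451538_at, was 0.53 log2 units above the other 3 (SE 0.17, 95% confidence interval 0.11 to 0.95, unadjusted p = 0.0218, adjusted p = 0.784 by limma), and 1424950_at was 0.57 above (SE 0.21, interval 0.062 to 1.07, adjusted p = 0.784). Both probe sets read the same RNA and are not separate samples. In tumor 1 the same 2 differed by -0.31 (interval -0.87 to 0.24) and -0.42 (interval -0.9995 to 0.17).

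The third was Sox12 1439754_at in tumor 4, at -0.64 (SE 0.27, interval -1.28 to -0.0027, adjusted p = 1.00 by limma), while the other Sox12 probe set differed there by 0.046. Sox2 differed by 0.28 in tumor 1 (interval -0.26 to 0.81), 0.35 in tumor 2 (-0.21 to 0.91), -0.39 in tumor 4 (-0.96 to 0.18) and -0.24 in tumor 5 (-0.84 to 0.36). A change of 2-fold lies outside each of these Sox2 intervals, but smaller differences do not.

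For Sox4 and Sox11 the largest difference in any tumor was -0.35, that of Sox11 1429372_at in tumor 4 (interval -0.82 to 0.11). Over their 44 differences the interval bounds ran from -0.82 to 0.70, so that none reached 2-fold. In tumor 1, 5 of 5 Sox4 and 6 of 6 Sox11 probe sets lay above the mean of the other 3, as did 44.6% of all probe sets. Probe sets of a gene read the same RNA and are not separate samples, so these counts cannot be weighed against that share. Sox4 1433575_at and 1449370_at were above by only 0.0092 and 0.016. The medians were 0.15 for each gene and the highest values 0.26 for Sox4 1419156_at and 0.27 for Sox11 1431225_at, while 1436790_a_at of Sox11 lay level with the others. The count of 11 was 10 without tumor 2, without tumor 4 or without tumor 5, and 8 with array medians aligned, since the smallest differences then fell below 0.

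**Figure D3:**
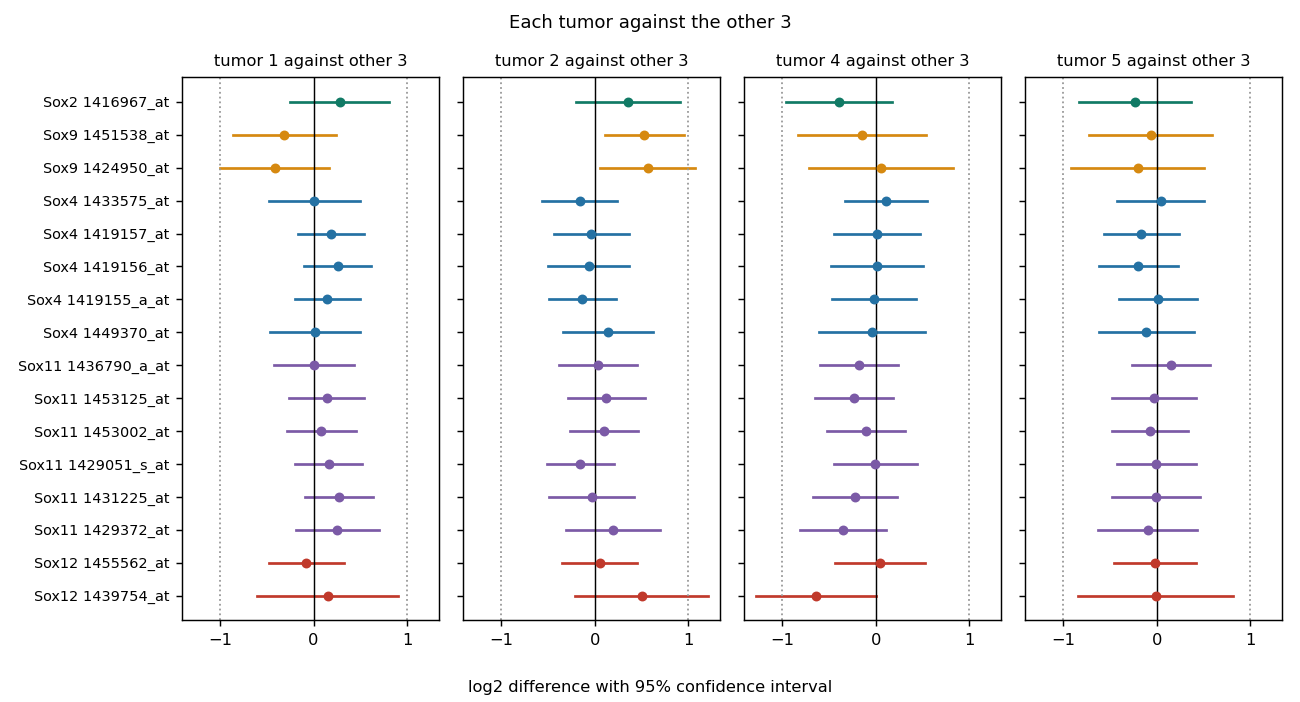
Log2 difference of each tumor from the mean of the other 3 (points) with its 95% confidence interval (bars) from limma for the 16 Sox probe sets past the filter, 1 panel per tumor, with dotted lines at 2-fold. The Sox4 and Sox11 intervals all cover 0, and the intervals that leave it out are those of Sox9 in tumor 2 and of Sox12 1439754_at in tumor 4.

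For comparison, 15 other genes of the Sox family were listed. Of these, 10 had a single-symbol probe set in the deposited data and were read, in 20 probe sets. Only 6 of these probe sets, 1 each of Sox1, Sox5, Sox6, Sox8, Sox10 and Sox18, passed the filter on the mean. Sox1, the close relative of Sox2, read 8.37, 9.07, 8.74 and 8.64 in tumors 1, 2, 4 and 5 in 1438729_at. Sox10, a factor of the oligodendrocyte lineage, read 5.67, 6.87, 6.49 and 6.07. Sox8, of the same SoxE group as Sox9 and Sox10, read 7.07, 7.54, 6.99 and 7.30. All 3 were highest in tumor 2 in these probe sets, like Sox9, and Sox1 and Sox10 were lowest in tumor 1. The other Sox1 probe set, 1422205_at, lay below the filter and was highest in tumor 5 (5.43, against 5.35 in tumor 2).

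Sox6, a SoxD factor that also acts in the oligodendrocyte lineage, read 6.30, 7.04, 6.04 and 5.85 in 1447655_x_at, again with tumor 2 highest. The suffix marks probes that may bind other transcripts. Below the filter, 1427677_a_at (6.31 in tumor 2, 5.51 to 5.79 in the others) and 1434918_at (5.76 in tumor 2, 5.17 to 5.36 in the others) also put tumor 2 first. The remaining Sox6 probe set, 1426018_a_at, lay below the floor in every tumor and was highest in tumor 4 (2.94, against 2.79 in tumor 2). In all, tumor 2 was highest in 4 of the 6 other Sox probe sets past the filter, in 3 of the 3 of Sox2 and Sox9 and in 4 of the 13 of the SoxC genes, against 28.3% of all probe sets. None of the 6 passed the limma test in any tumor, and Sox6 differed by 0.97 in tumor 2 (adjusted p = 0.795). This ordering was looked for after the values had been seen, and probe sets of the same gene are not separate samples.

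Sox18, a factor of blood vessel endothelium, was instead highest in tumor 5 and lowest in tumor 1, at 8.81, 9.02, 9.24 and 9.59 in tumors 1, 2, 4 and 5. Below the filter, Sox21, which acts against the SoxB1 factors, read 6.37, 6.13, 5.38 and 5.03, and Sox3, another SoxB1 gene, read 5.55, 6.06, 5.78 and 5.11 in 1435192_at. Both probe sets of Sox17 and the single one of Sox7, genes of endothelium, lay below the floor in every tumor.

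**Figure D4:**
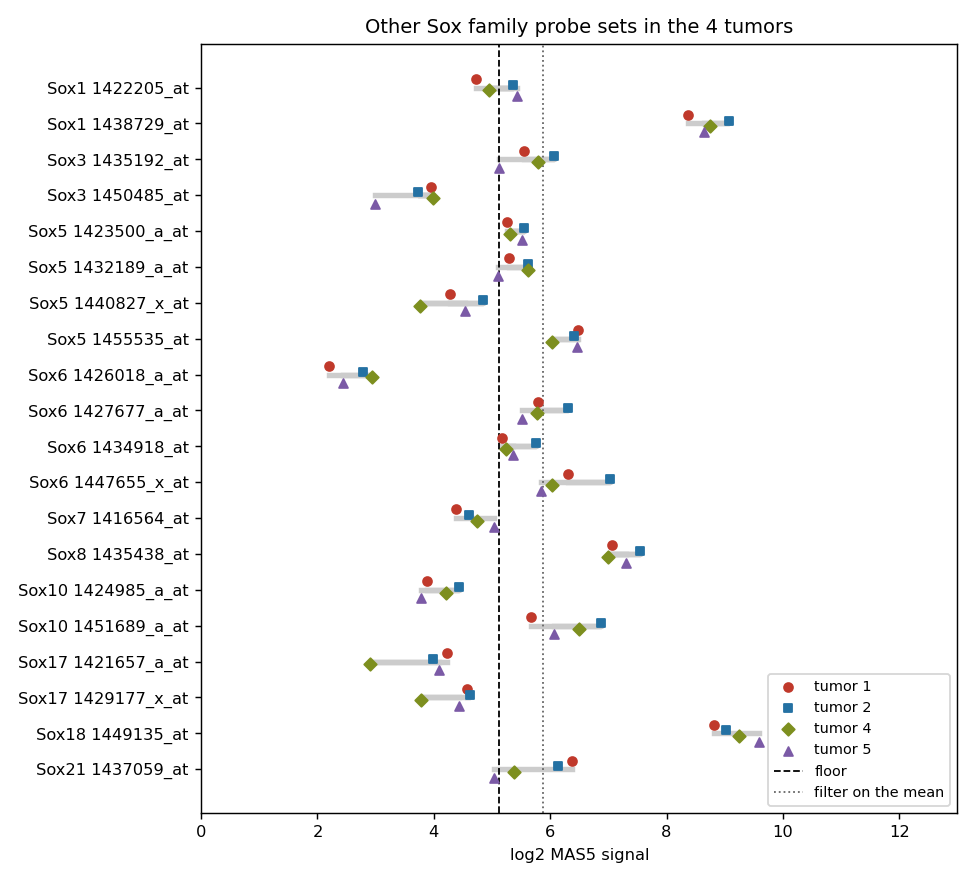
Log2 MAS5 signal (x axis) of the 20 probe sets of the other Sox genes (rows) in the 4 tumors (coloured points, 1 array each; grey bars join lowest and highest), with the floor at 5.12 dashed and the filter on the mean at 5.87 dotted. Tumor 2 (squares) is furthest right for Sox1 1438729_at, Sox8, both Sox10 and 3 of the 4 Sox6 probe sets, and most of the other rows lie left of the filter.

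Genes tied to the Sox factors were read from fixed lists, with 1 probe set per gene and a background of 110 of 8498 genes (1.29%) passing in tumor 1 and 0 in the others. Of the 12 genes of neuronal differentiation linked to SoxC factors, 8 were higher and 4 lower in tumor 1 than in the other 3, with a median of 0.34 (all genes, -0.036) and 0 passing. Tubb3, the neuronal tubulin gene, read 10.01, 9.54, 9.83 and 9.50 in tumors 1, 2, 4 and 5. Dcx, a microtubule protein of migrating neurons, read 10.03, 9.85, 9.45 and 9.42. The largest differences of the list in tumor 1 were those of Stmn2 at 0.84 (adjusted p = 0.469) and Neurod1 at 0.63 (adjusted p = 0.216). Sox4 and Sox11 themselves lay within 1.37-fold in every probe set.

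Of 13 genes of neural stem cells and radial glia past the filter, 5 were higher and 8 lower in tumor 1, with a median of -0.078. Only Pax6, a homeobox gene that is also a granule cell factor, passed, at 2.39-fold (difference 1.26, SE 0.22, adjusted p = 0.0317). Hes5, a Notch target of stem cells, differed by -1.05 (adjusted p = 0.387). Nes, the intermediate filament gene of stem cells, read 6.53, 7.25, 6.89 and 6.94 in tumors 1, 2, 4 and 5, and Notch1 5.61, 6.47, 5.90 and 5.58. Both were highest in tumor 2 like Sox9, but Notch1 reached the filter on the mean through that tumor, so its order is no support. Fabp7, Nfia and Slc1a3 were instead lowest in tumor 2, differing there by -0.46, -0.22 and -0.28. In tumor 2 the list had 8 higher and 5 lower, a median of 0.13 and 0 passing.

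Among 6 genes past the filter of partners of SOX2 and CHD7, 5 were higher in tumor 1 with a median of 0.19, and Pax6 alone passed. Chd7 itself read 8.77, 8.66, 8.48 and 8.60 in tumors 1, 2, 4 and 5. Pou3f2, a POU factor that pairs with SOX2 in neural cells, was highest in tumor 2, at 0.89 above the other 3 (adjusted p = 0.795), and lowest in tumor 5 at 5.66.

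Markers of glia moved in both directions in tumor 1. Of 15 genes of astrocytes and Bergmann glia, 12 were higher in tumor 1 (median 0.29), and their mean log2 signal was 9.36, 8.89, 9.04 and 9.04 in tumors 1, 2, 4 and 5. None was at 0. Gdf10, a secreted factor of Bergmann glia, passed at 1.84 (adjusted p = 0.00813), Gfap, the astrocyte filament gene, differed by -0.98 (adjusted p = 0.0558) and was lowest in tumor 1, as Sox9 was. Apoe and Clu, both secreted by astrocytes, differed by -0.32 and -0.20, and with Gfap they were the only 3 lower genes of the list. Most of the list thus went against Sox9 in tumor 1. Hopx, Gja1, Fgfr3, Aldoc and Slc1a3 were higher there by 0.99, 0.85, 0.81, 0.70 and 0.65. In tumor 2, where Sox9 was highest, 11 of the 15 were lower than in the other 3 (median -0.28). In bulk tissue, fewer cells of a type and less RNA per cell cannot be told apart, and the part of glial cells in the Sox9 values was not tested.

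In the oligodendrocyte lineage the myelin genes Mbp, Ugt8a and Cldn11 passed as higher in tumor 1 (differences 2.96, 2.24 and 2.04), while Sox10 differed by -0.80 and Olig2, a lineage factor, by -0.66 (adjusted p = 0.141). The 5 Purkinje and inhibitory neuron genes past the filter all passed in tumor 1. Car8 and Pvalb, genes of calcium handling in these neurons, lay above the floor in every tumor and differed by 3.16 and 2.45. The mean log2 signal of the 5, as deposited and not raised to the floor, was 9.31 in tumor 1 and 5.34, 6.56 and 5.57 in tumors 2, 4 and 5. Calb1, Pcp4 and Gad1, and among the genes named for other lists Gdf10, Cldn11 and Chn2, reached the filter on the mean through tumor 1, so that their passing is no support. Slc32a1, the GABA transporter gene of synaptic vesicles, was listed at 0 on the log2 scale in tumors 2 and 5. The Sox difference largest in size in tumor 1 was -0.42, that of Sox9 1424950_at.

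The genes of granule neurons that have left the cell cycle were higher in tumor 1 in 6 of 6 cases (median 0.68), Cntn2, an adhesion molecule, passing at 1.12 (adjusted p = 0.0282) and Chn2 at 3.08. Of 13 genes of their progenitors 10 were lower in tumor 1 (median -0.36) and Pax6, which is in 3 of the lists, alone passed, with Atoh1, their defining factor, differing by -0.83 (adjusted p = 0.103). In the remaining lists of tumor 1, 6 of 8 microglia genes were lower (median -0.42) and Ptprc, the leukocyte antigen CD45, passed at -1.15 (adjusted p = 0.0429), its tumor 1 signal being below the floor. The 2 endothelial and mural and the 4 fibroblast genes past the filter were all higher, and none of them passed. How far the makeup of tumor 1 enters its Sox values was not tested.

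**Figure D5:**
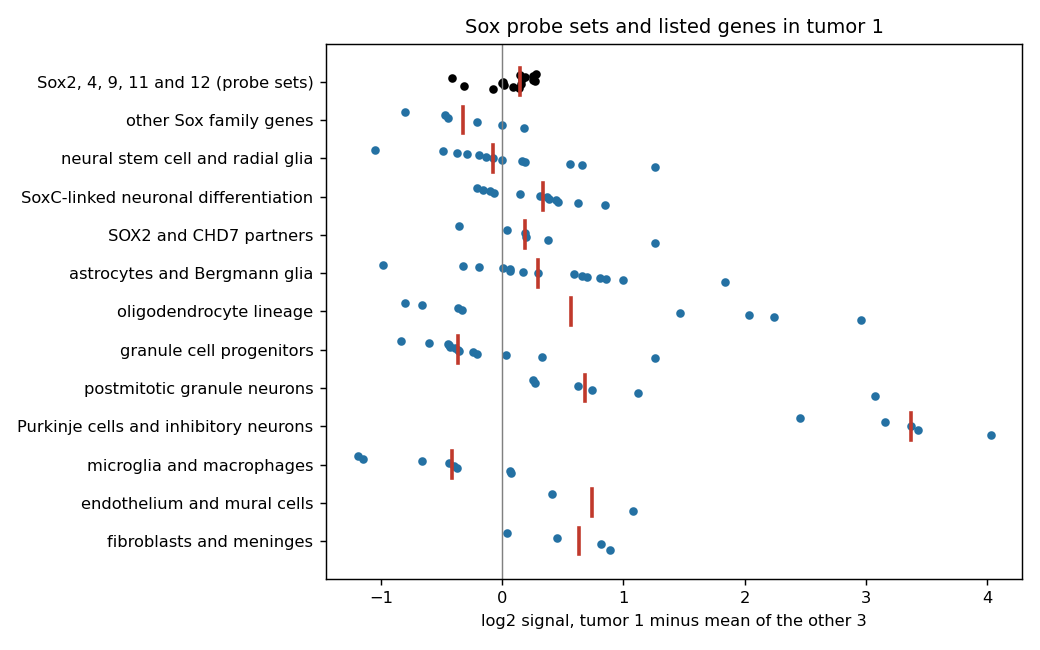
Log2 signal in tumor 1 minus the mean of the other 3 (x axis) for the 16 Sox probe sets (black, top row) and the genes of each list past the filter (blue), with the median of each row as a red bar. The Sox points lie between -0.42 and 0.28, and of the 5 Purkinje and inhibitory neuron genes Calb1, Pcp4 and Gad1 reached the filter on the mean through tumor 1.

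A search for the genes whose pattern over the tumors was most like a Sox gene was set to run only for those whose brightest probe set ranged over 1 log2 unit or more. It was run for none, because these ranges were 0.56 for Sox2, 0.63 for Sox9, 0.20 for Sox4, 0.25 for Sox11 and 0.10 for Sox12.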

How the data were processed

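Total RNA of 4 tumors was measured on 1 array each. The authors deposited log2 values made with MAS5, per the submitters' processing notes; its version and its scaling target are unstated there. The notes name no genome build, and the table has no detection calls. MAS5 works array by array, so differences between arrays that depend on signal can remain, and with 4 arrays the precision is low. The 61 control probe sets were set aside. Of 29304 probe sets, 24679 had a single gene symbol, 647 several and 3917 none in the platform annotation.

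Signals were raised to the floor of 5.12, and each tumor was compared with the other 3 by limma 3.58.1 in R 4.3.3 (lmFit, eBayes with an intensity trend), with Benjamini-Hochberg adjustment over 13525 probe sets, or 8498 genes (the probe set with the highest mean) for the lists. Nothing says the samples differ beyond being separate tumors. The code of the fit was checked on simulated data with shifts of known size, which says nothing of the real samples. The 4 comparisons share tumors. Members and lists were chosen with earlier results of these data known. Named were all Sox probe sets and, of the lists, mainly genes that passed in a tumor and those with the largest differences in tumor 1; further list genes of known Sox roles were named after their values were seen. Alternatives covered the floor, filter, scaling, trend, probe set choice and leaving out each tumor. Python 3.11.15 was used for the summaries.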

Additional observations from a re-analysis of the deposited data

Results flagged for a closer look

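Of 37 Sox family probe sets checked for a tumor far from the other 3, 1 stood out: Sox5 1455535_at, a SoxD gene, had a log2 signal of 6.03 in tumor 4, whereas the other 3 lay from 6.40 to 6.47. Chance flags about 1 in 20 such groups. None of the 17 probe sets of Sox2, Sox4, Sox9, Sox11 and Sox12 was marked in this way.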

How the results depend on the processing

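No Sox probe set passed in any tumor under any of 13 settings run for each tumor (0 in every one), among them leaving out each other tumor in turn. The lowest adjusted p of a Sox probe set under an alternative was 0.0918, that of Sox2 in tumor 2 without tumor 1. The 13 single differences of over 0.25 kept their direction throughout: Sox9 1451538_at in tumor 2 ran from 0.48 to 0.57 and Sox12 1439754_at in tumor 4 from -0.73 to -0.49. They were picked by their size in these same arrays, which the alternatives reuse, so the kept direction is no independent support. The level of each Sox probe set moved by less than its SD, and no range reached 1 log2 unit. The count of genes with several readable probe sets that all put the same tumor first was 2 (Sox9 and Sox12) and became 1 with quantile normalization and 1 with array medians aligned, both added after seeing the data. Of 92 listed genes tested, 13 passed in tumor 1, against 5 of 112 with no filter on the mean, 3 of 59 with the filter at the 75th percentile and between 18 and 19 of 92 without replicate 2, 4 or 5; the cause was not tested. Over all probe sets, 118 passed in tumor 1, and between 40 and 301 under the alternatives. Without tumor 1, 92 passed in tumor 2 and 82 in tumor 5. No paired analysis was possible because all samples belong to 1 group. A difference under 2-fold could not pass by the rule. In the main setting no Sox range reached 1 log2 unit, so there no Sox probe set could have passed, whatever its p. The same held with quantile normalization, with no floor and with each tumor left out, where 0 of the 16 ranges reached it. That none passed under these settings was therefore fixed by the ranges and is no evidence of robustness. The 95% intervals of Sox9 1424950_at in tumor 2 and of Sox12 1439754_at in tumors 2 and 4 reached past 2-fold (bounds of 1.07, 1.22 and -1.28 log2 units).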
